A study of Mus musculus with 24 samples.

Results

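RAW264.7 macrophages carrying a Tbc1d23 construct, and labelled as overexpressing Tbc1d23, were compared between 5 h and 1 h of lipopolysaccharide (LPS). The aim was to see which genes of the early response had faded and which had risen late. RAW264.7 is a mouse macrophage-like cell line, and Tbc1d23 encodes a TBC-domain protein of intracellular membrane traffic. The comparison rests on 6 of the 24 arrays of the series, 3 from cells after 5 h and 3 from cells after 1 h of LPS at 20 ng/ml. The untreated (0 h) and 3 h arrays of the same line served as further points of the course, with 3 arrays each. A control line labelled as overexpressing chloramphenicol acetyltransferase (CAT), a bacterial enzyme, had 3 arrays at each of the same times. Both lines were kept in DMEM with FBS and G418, and each construct is represented by 1 line. The design text calls the 3 replicates biological, but neither it nor the labels tell whether they were separate cultures or whether the lines were clonal. The p-values therefore measure the spread between these samples, part of which may be technical.

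LPS is sensed by Toll-like receptor 4, which signals through the adaptor MyD88 to NF-kB and the MAP kinases and through the adaptor TRIF to IRF3 and type I interferon. Immediate early genes are transcribed within minutes from pre-assembled factors, and many of them encode unstable RNAs and the inhibitors that end the signal. Later genes need newly made factors, remodelled chromatin or secreted mediators such as interferon beta, which acts back on the cell to induce interferon-stimulated genes.

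Total RNA, labelled with Cy3, was measured on 1-colour Agilent mouse arrays. A level here is the log2 of a probe's processed signal minus the 75th percentile of its array, so levels of different probes cannot be set against each other. The 4 times of a replicate shared 1 slide, so 5 h and 1 h were compared within slides, but each time had the same position on every slide, and time and position cannot be told apart. Between 52.4% and 62.0% of probes were well above background on the 5 h arrays, against 46.3% to 53.6% on the 1 h arrays. Replicate arrays of these groups correlated at 0.968 to 0.984 over genes.

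The transcript of the introduced gene was read first. The brightest Tbc1d23 probe (chr16:57169122-57169181, mm9) ranged from 2.83 to 3.63 on the 12 arrays of the Tbc1d23 line and from 2.52 to 3.39 on the 12 CAT arrays, so the lines overlapped. A dimmer probe of the gene (chr16:57170528-57171769) ranged from -0.43 to 0.49 in the Tbc1d23 line and from -1.09 to -0.31 in the CAT line, again with overlap. The other 2 probes were at or near background. The labels do not tell which stretch of the transcript the construct carries, so these probes do not check the label of overexpression. Between 5 h and 1 h the gene was not called (log2 difference -0.06).

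The macrophage label was checked against its markers: 22 of the 23 macrophage markers tested were well above background on all 6 arrays. Summed over the list, their linear levels were 1239 to 1769 at 5 h and 1095 to 1674 at 1 h. Of the 23 markers 5 were higher and 2 lower at 5 h, beside 11.6% higher and 8.07% lower among all genes. Among them, named after their values were seen, were the adhesion receptor gene Adgre1 (1.70) and the oxidase subunit Cybb (1.36), with the Fc receptor Fcgr3 lower (-1.08). Other cell types had few tested markers: 4 for T and NK cells, 3 for B cells, 6 for granulocytes and erythroid cells and 5 for dendritic cells. Sums at 5 h and 1 h stood apart for T and NK cells (3.77 to 3.99 against 3.03 to 3.42) and B cells (0.838 to 1.3 against 0.659 to 0.752). They overlapped for the other lists of this group. Each list but that of B cells had 1 marker called higher, and 0 were lower. The 4 fibroblast and epithelial markers had summed levels of 0.182 to 0.223 at 5 h and 0.108 to 0.321 at 1 h, and 0 of 4 were above background on all 6 arrays. Of 9 osteoclast markers, a fate open to RAW264.7 cells, 4 were higher and 0 lower at 5 h, beside the same shares of all genes. Their sum was 9.76 to 11.8 at 5 h against 7.64 to 8.98 at 1 h. The part of these shifts in the results below was not tested.

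Across 15075 genes, limma called 2968 (19.7%) between 5 h and 1 h at a Benjamini-Hochberg adjusted p under 0.05, with the slide as a block. Of these 1752 (11.6%) were higher and 1216 (8.07%) lower at 5 h, and 468 (3.1%) changed at least 2-fold. In 19.6% of all genes the 3 arrays at 5 h did not overlap the 3 at 1 h. The split depended on scaling: median scaling of the arrays gave 294 higher and 1113 lower, and quantile normalization 1698 and 1691. The median difference over all genes was 0.09 in the fit used here, 0.016 with quantile normalization and -0.213 with median scaling, so small changes are relative to that choice. Slide runs here are slides grouped by the opening characters of their barcodes, and the labels do not name them as batches. Within the slide run of replicates 1 and 2 the count was 1077. Within the run that holds replicate 3 and the CAT slides it was 582, where the spread came from CAT arrays alone. In bulk RNA, fewer cells expressing a gene and less RNA per cell cannot be told apart.

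Of 89 genes that rose at least 2-fold in the first hour in this line, when 1.43% of all genes were called higher, 58 had fallen by 5 h, 17 had risen further and 14 were called in neither direction. The 1 h arrays enter the early rise and the later fall with opposite sign, so a gene read too high at 1 h favours both calls. Beside this, 8.07% of all genes were lower and 11.6% higher at 5 h. The 58 faded genes had a median rise of 2.87 by 1 h and a median later change of -1.66. Of the 58, 19 were no longer called above 0 h, and 39 were still called higher, with a median of 1.27 above 0 h, beside 15.7% of all genes called in either direction between 5 h and 0 h. Another set of early genes was chosen without these arrays, as the 350 genes induced at least 2-fold by 1 h in CAT cells. There 6.32% of all genes were called higher at any size. Of the 350, 87 were lower and 111 higher at 5 h in Tbc1d23 cells (median 0.149). But only 85 of them (24.3%) met the early rule in the Tbc1d23 line, where the median first-hour change of the 350 was 0.43. Most of this set therefore had no called 2-fold early rise to lose here.

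Among the transcription factors, Egr1 fell furthest. Egr1, a zinc finger factor switched on by MAP kinase signalling, read -0.79, -0.67 and -1.58 at 5 h in replicates 1 to 3, against 6.40, 6.61 and 5.66 at 1 h. Every 5 h array was below every 1 h array and close to the levels at 0 h (-0.78, -0.57 and -1.13). The difference was -7.23 ± 0.11, a 150.5-fold fall (limma adjusted p = 1.15e-14), and 5 h was not called against 0 h. Here and below, the value after ± is the standard error from the fit over all 24 arrays, for a difference over 3 pairs of arrays. Genes named for the size of their change had to have groups apart and 3 of 3 pairs alike. These traits are therefore no further support, here and below. The relatives of Egr1 followed with smaller falls, -3.54 for Egr3 and -2.88 for Egr2. Egr3 read -3.89, -3.99 and -4.22 at 5 h and -0.66, -0.37 and -0.44 at 1 h, and the groups stood apart. Atf3, a stress-induced repressor of cytokine genes, read -1.19, -1.02 and -1.06 at 5 h and 2.38, 2.24 and 2.36 at 1 h. Its fall of 3.42 ± 0.08 on the log2 scale carried it below the 0 h level (5 h minus 0 h, -0.66, limma adjusted p = 3.5e-05). The orphan nuclear receptor Nr4a1 (-3.31), the immediate early gene Ier2 (-2.77), the antiproliferative gene Btg2 (-2.51) and the AP-1 subunit Fos (-2.24) also fell, in 3 of 3 pairs each. A second Ier2 probe, above background on all 6 arrays, differed by -0.92, and the other 2 Btg2 probes by -1.92 and -1.85.

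Of 29 immediate early transcription factors tested, 18 were lower and 4 higher at 5 h, with a median of -0.92. Beside this, 8.07% of all genes were lower and 11.6% higher. Of these 29, 13 belonged to the faded genes. The 4 that were higher, of which Jund, Myc and Klf4 are named after their values were seen, were Jund (0.45), Myc (0.63), Klf4 (0.91) and Id1 (1.36), of which Id1, an inhibitor of helix-loop-helix factors, had 1 array at 0 h left out by an outlier flag. The median stayed negative under each of the 5 other scalings and background corrections run, from -1.22 to -0.59.

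Several inhibitors of TLR4 signalling were among the faded genes. Tnfaip3 encodes A20, a ubiquitin-editing enzyme that restrains NF-kB. Its levels were -1.02, -0.74 and -0.90 at 5 h and 4.63, 4.90 and 5.03 at 1 h, without overlap. The difference of -5.74 ± 0.10 is a 53.3-fold fall (limma adjusted p = 4.26e-14), yet 5 h remained 1.45 above 0 h. Nfkbia, which encodes the NF-kB inhibitor IkB-alpha, fell less, to 6.89, 6.94 and 6.66 at 5 h against 8.26, 8.45 and 8.04 at 1 h (-1.42 ± 0.09). Zfp36 encodes tristetraprolin, which marks Tnf and other cytokine mRNAs for decay, and it read 0.18, 0.77 and 0.53 at 5 h against 3.95, 4.12 and 4.30 at 1 h. All 3 pairs dropped, and the 12.35-fold fall left 20.9% of the early log2 rise. The nuclear IkB proteins Nfkbiz (-3.22 ± 0.21) and Nfkbid (-2.11 ± 0.14) fell as well. The MAP kinase phosphatases Dusp1 (-2.64 ± 0.09) and Dusp2 (-2.58 ± 0.09) and the receptor feedback inhibitor Errfi1 (-2.49 ± 0.08) fell by similar amounts. Of 12 MAP kinase phosphatases and Sprouty proteins, 6 were lower and 1, Dusp6 (0.72, named after its value was seen), was higher, with a median of -0.37. Beside this, 8.07% of all genes were lower and 11.6% higher.

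NF-kB genes as a list went the other way. Of 25 subunits, feedback inhibitors and other NF-kB pathway or target genes tested, 16 were higher and 4 lower at 5 h. Beside this, 11.6% of all genes were higher and 8.07% lower. The list median was 0.64 against 0.09 over all genes, and median scaling gave 9 higher and 4 lower. The 4 that fell were Tnfaip3, Nfkbiz, Nfkbid and Nfkbia. Among those that rose, named after their values were seen except for Bcl3, were the subunits Nfkb1 (1.57), Nfkb2 (1.57) and Relb (1.29), the inhibitors Tnip1 (1.27), Tnip3 (1.21) and Nfkbie (1.03), and the coactivator Bcl3. Other risers, also named after their values were seen, were neither subunits nor inhibitors, such as Ripk2 (0.99), Tnfaip2 (0.99) and Icam1 (0.635). Bcl3 read 4.89, 4.73 and 4.18 at 5 h and 2.65, 2.90 and 2.19 at 1 h, and the groups did not overlap (2.02 ± 0.13, limma adjusted p = 7.33e-08).

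Secreted inflammatory genes were divided. Tnf, the early macrophage cytokine, read 3.38, 3.51 and 3.65 at 5 h and 6.60, 6.54 and 6.86 at 1 h. All 5 h arrays lay below the 1 h arrays, an 8.91-fold fall (-3.15 ± 0.09, limma adjusted p = 2.34e-11) that kept 40.0% of the early log2 rise. Cxcl2, a neutrophil-attracting chemokine, read 2.21, 2.01 and 1.75 at 5 h and 4.79, 4.97 and 4.55 at 1 h, a fall of 2.78 ± 0.21 on the log2 scale. It was above background on 2 of 3 arrays at 0 h, and 68.4% of its early log2 rise was left at 5 h. Tnfsf9, the ligand of the costimulatory receptor 4-1BB, fell by 1.95 ± 0.10 and was not called against 0 h (-0.11). Cxcl10, a chemokine induced by both NF-kB and interferon, differed by only -0.38 ± 0.09, and this call ended without replicate 3 (-0.28, limma adjusted p = 0.118).

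**Figure D1:**
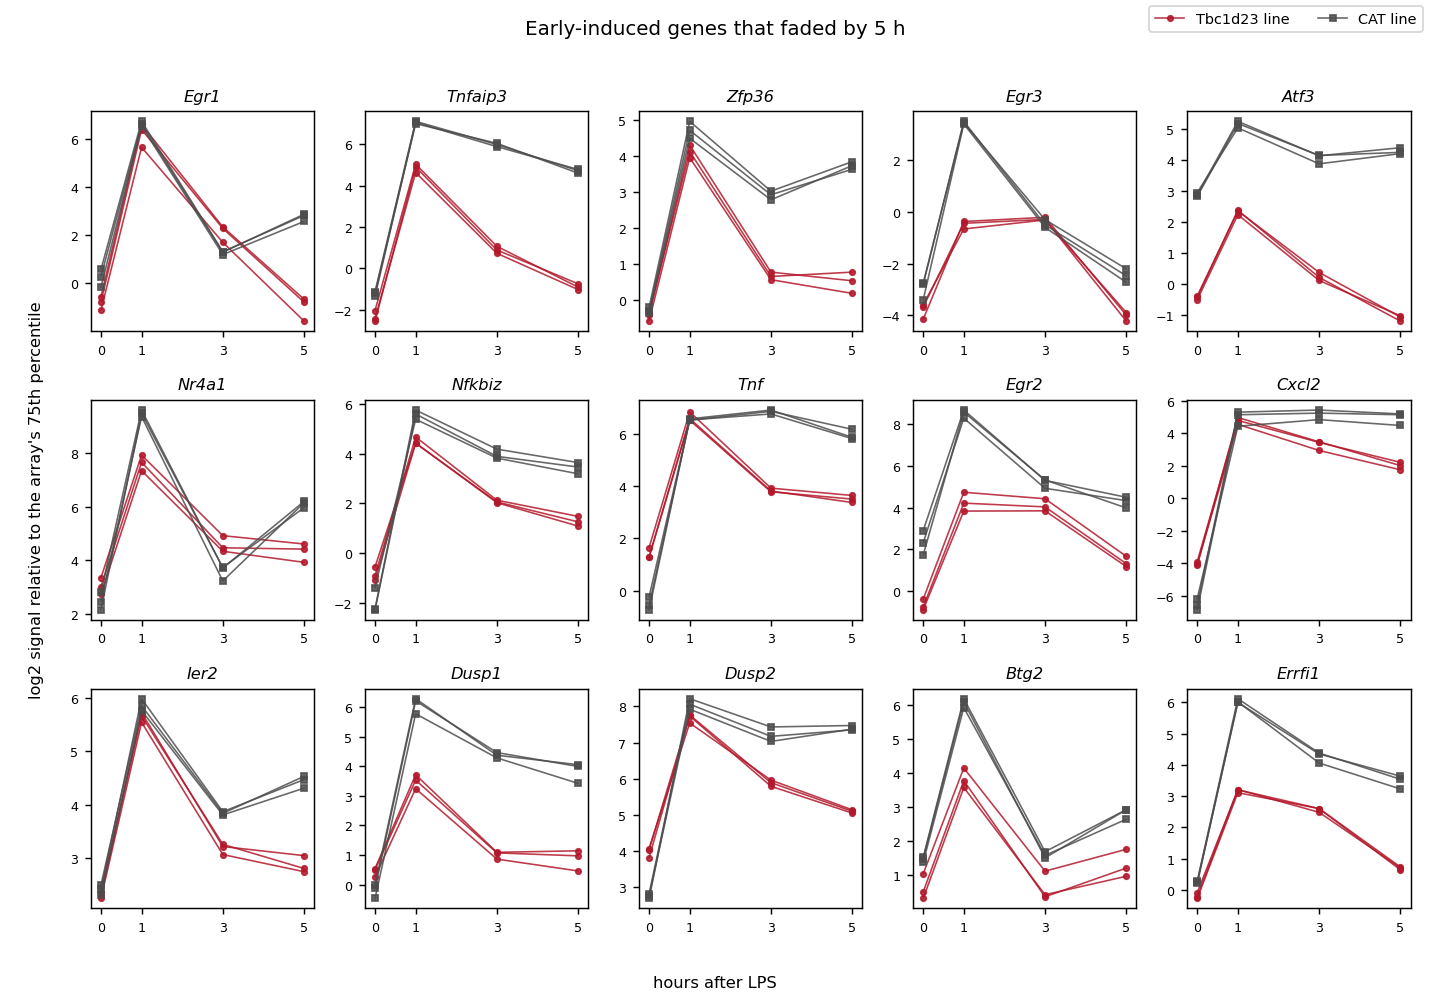
Levels of the 15 early-induced genes with the largest falls among those that met the naming rule, as log2 signal relative to the 75th percentile of the array, against hours after LPS. Each line joins the 4 arrays of a replicate, red circles for the Tbc1d23 line and grey squares for the CAT line. The fall that chose these genes ends at different heights: Egr1 is back at its 0 h level at 5 h, while Tnfaip3 and Cxcl2 stay above theirs.

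The 3 h arrays, which no class was chosen on, showed that the fall had more than 1 tempo. Of the 58 faded genes, 35 were already called lower at 3 h than at 1 h, 6 were called higher at 3 h, and 17 were called in neither direction, beside 6.67% lower and 9.19% higher among all genes. From 3 h to 5 h, 33 of the 58 were called lower and 4 higher, beside 2.06% lower and 1.57% higher among all genes. These contrasts share the 1 h or 5 h arrays with those that chose the genes. The median gene had covered 54.9% of its log2 fall by 3 h. Zfp36 (3 h minus 1 h, -3.46), Nr4a1 (-3.05), Tnf (-2.82) and Dusp1 (-2.49) had made nearly all of their fall by 3 h and were not called between 3 h and 5 h. Egr1 and Tnfaip3 went on falling after 3 h, by 3.12 and 1.78 on the log2 scale. At 3 h against 1 h they stood at -4.11 and -3.95, and the other large fallers at -3.18 (Btg2), -2.45 (Ier2), -2.43 (Nfkbiz), -2.09 (Atf3), -1.80 (Dusp2), -1.49 (Cxcl2) and -0.61 (Errfi1).

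For Egr3 and Egr2 the called fall came after 3 h. Their differences between 3 h and 1 h were 0.22 and -0.16, neither of them called, and those between 5 h and 3 h were -3.77 and -2.72. Another 6 genes peaked at 3 h before dropping under their 1 h level, and they were looked up after their values were seen: Cxcl10, the fatty acid receptor gene Gpr84, the histone demethylase Kdm6b, the inflammasome sensor Nlrp3, the costimulatory marker Cd83 and Cdc42ep4. Cxcl10 was 1.40 above 1 h at 3 h and 1.78 lower at 5 h than at 3 h. A further 4 genes turned up again between 3 h and 5 h, also named after their values were seen: Fos (1.06 ± 0.14), the nuclear receptor Nr4a2 (0.93 ± 0.165), Btg2 (0.67 ± 0.08) and the cytokine Osm (0.55 ± 0.14). Fos averaged 0.92 at 3 h, and its 5 h arrays read 1.98, 2.02 and 1.97, all under the 1 h arrays (4.12, 4.29 and 4.28).

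**Figure D2:**
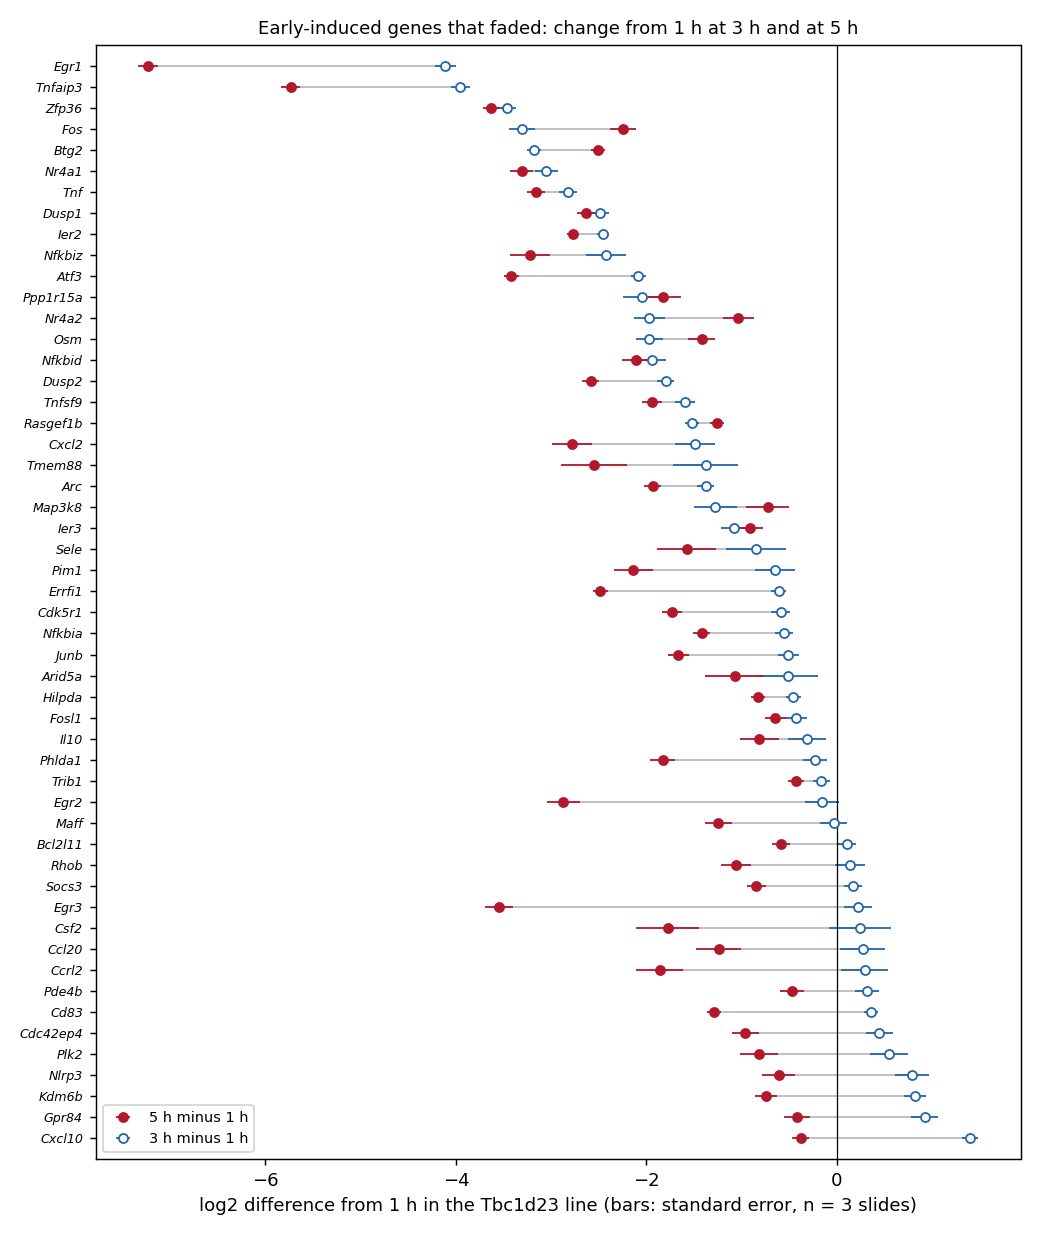
Log2 difference from 1 h in the Tbc1d23 line at 5 h (filled red) and at 3 h (open blue) for the 52 faded genes with a gene symbol, with standard errors from the fit over all 24 arrays. Genes at the top, such as Egr1 and Zfp36, had fallen by 3 h, those at the bottom, such as Cxcl10, stood above their 1 h level at 3 h, and for Fos and Btg2 the 5 h point lies right of the 3 h point.

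The promoters of faded genes were read for letters that known factors bind. Windows ran from 250 bases before to 50 after each RefSeq start (GRCm38.p6) and were searched on both strands for the NF-kB motif, the interferon-stimulated response element (ISRE), TGANTCA (AP-1) and TGACGTCA (cyclic AMP response element, CRE), with overlapping matches kept. Of the 58 faded genes 36 matched the table, with 56 promoters. TGACGTCA stood in 12.5% of these promoters, in those of 7 genes (Btg2, Dusp1, Errfi1, Maff, Nfkbid, Plk2 and Ppp1r15a), against 1.79% of all 32851 promoters, and in 0 of 134 promoters of late-rising genes. The NF-kB motif stood in 8.93% of promoters of faded genes, in those of 5 genes (Ccl20, Cxcl2, Nfkbia, Rasgef1b and Tnfaip3), against 1.63% of all. AP-1 letters were in 8.93% against 7.81% of all. The Tnfaip3 window also holds 1 AP-1 match. The following promoters show the 250 bases before the start, 5′ to 3′, with the matched letters in capitals, for faded genes chosen after their matches were seen.
Tnfaip3 (chr10:19015411-19015660, minus strand): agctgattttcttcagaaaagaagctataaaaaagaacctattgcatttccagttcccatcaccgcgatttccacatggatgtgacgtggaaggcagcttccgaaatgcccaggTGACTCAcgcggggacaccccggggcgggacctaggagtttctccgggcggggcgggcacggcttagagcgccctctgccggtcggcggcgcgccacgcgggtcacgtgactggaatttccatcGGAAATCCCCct
Nfkbia (chr12:55492648-55492897, minus strand): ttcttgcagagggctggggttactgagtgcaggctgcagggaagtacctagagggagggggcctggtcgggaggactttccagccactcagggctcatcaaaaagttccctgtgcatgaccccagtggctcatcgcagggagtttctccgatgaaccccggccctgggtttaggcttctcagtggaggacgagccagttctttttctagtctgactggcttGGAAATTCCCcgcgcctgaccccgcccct
Cxcl2 (chr5:90903649-90903898, plus strand): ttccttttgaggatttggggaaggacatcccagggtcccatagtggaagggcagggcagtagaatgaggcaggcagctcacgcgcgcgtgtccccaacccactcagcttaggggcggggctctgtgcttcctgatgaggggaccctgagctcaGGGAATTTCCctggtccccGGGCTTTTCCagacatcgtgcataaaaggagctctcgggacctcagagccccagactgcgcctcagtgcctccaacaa
Dusp1 (chr17:26508473-26508722, minus strand): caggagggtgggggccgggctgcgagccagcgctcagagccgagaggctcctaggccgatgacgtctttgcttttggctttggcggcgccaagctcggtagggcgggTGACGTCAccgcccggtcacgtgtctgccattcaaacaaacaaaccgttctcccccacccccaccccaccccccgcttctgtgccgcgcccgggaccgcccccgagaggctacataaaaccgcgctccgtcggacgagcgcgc
Btg2 (chr1:134079156-134079405, minus strand): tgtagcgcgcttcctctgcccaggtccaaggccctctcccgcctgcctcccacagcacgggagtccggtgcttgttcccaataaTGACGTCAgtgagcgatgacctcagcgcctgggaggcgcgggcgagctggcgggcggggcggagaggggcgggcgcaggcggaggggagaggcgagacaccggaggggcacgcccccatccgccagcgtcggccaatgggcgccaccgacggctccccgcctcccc
The Cxcl2 window holds 2 NF-kB matches, the nearer ending 69 bases before the start, and in the Tnfaip3 window the NF-kB match ends 3 bases before it. A match is a description of letters and not evidence of binding.

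The 17 early genes that rose further had done so by 3 h. All 17 were called higher at 3 h than at 1 h (median 1.58), beside 9.19% of all genes. The 1 h arrays of this contrast also chose them. Their median change from 3 h to 5 h was -0.24. Of the 17, 6 were called lower and 0 higher between 3 h and 5 h, beside 2.06% lower and 1.57% higher among all genes. Cd40, a costimulatory receptor, read 1.02, 1.06 and 0.72 at 5 h and -1.88, -1.77 and -1.65 at 1 h. The groups were far apart, with a difference of 2.70 ± 0.21 (6.51-fold, limma adjusted p = 6.31e-07). Acod1, whose enzyme makes itaconate, read 7.63, 7.76 and 7.53 at 5 h and 5.29, 5.38 and 5.59 at 1 h (2.22 ± 0.12). Il1b, the inflammasome-processed cytokine, read 2.80, 2.88 and 2.54 at 5 h and 1.06, 1.05 and 1.34 at 1 h (1.59 ± 0.25). The monocyte chemokine Ccl7 (1.51 ± 0.31), the fatty acid binding protein Fabp4 (1.38 ± 0.10) and Fndc7 (1.65 ± 0.22) also rose further, and the prostaglandin synthase Ptgs2 rose by 0.81 ± 0.09. At 3 h against 1 h the differences were 2.60 for Cd40, 2.44 for Acod1, 1.70 for Il1b, 1.64 for Ccl7 and 1.31 for Fabp4.

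Among the 14 early genes called in neither direction was Ifnb1, which encodes interferon beta. It read -1.80, -1.53 and -1.40 at 5 h and -1.96, -2.30 and -1.91 at 1 h. The groups did not overlap, but the difference of 0.48 ± 0.25 did not pass the test (limma adjusted p = 0.193). At 5 h it was still 3.58 above 0 h.

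Late-rising genes numbered 133, defined as at least 2-fold higher at 5 h than at 1 h, called above 0 h at 5 h and not called higher at 1 h. Of these, 86 were well above background on all 6 arrays, and 24 were not above it on any 1 h array, so that only a bound of their fold can be given. Most of the rise was in place at 3 h: 119 of 133 were called higher at 3 h than at 1 h, beside 9.19% of all genes, and the median gene had made 90.1% of its rise. The 1 h arrays of this contrast also chose the class. From 3 h to 5 h, 21 were called higher and 9 lower, beside 1.57% higher and 2.06% lower among all genes. The 5 h arrays of that contrast also chose the class.

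Vegfc, Fas and Icosl had the largest rises among the late genes named that were above background on all 6 arrays. Vegfc, a growth factor for lymphatic vessels, read 1.02, 1.18 and 1.08 at 5 h and -2.02, -2 and -1.93 at 1 h. The rise of 3.07 ± 0.11 (8.42-fold, limma adjusted p = 2.2e-10) continued after 3 h, by 0.98 on the log2 scale. The death receptor gene Fas read 0.08, 0.14 and 0.78 at 5 h and -2.85, -2.97 and -2.29 at 1 h, 8.20-fold apart, and was not called between 3 h and 5 h. Icosl, the ligand of the T cell costimulator ICOS, peaked at 3 h. Its mean was 4.09 at 3 h, and it read 3.19, 3.29 and 3.15 at 5 h and 0.10, 0.50 and 0.67 at 1 h (2.79 ± 0.16), with 5 h below 3 h by 0.88. The prostaglandin E2 receptor Ptger2 had the same shape, 2.02 ± 0.14 above 1 h at 5 h and 0.88 lower at 5 h than at 3 h.

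Smaller late rises followed. The water channel Aqp8 (2.65 ± 0.31), the hydroxycarboxylic acid receptor Hcar2 (2.62 ± 0.20) and the actin-severing protein Scin (2.41 ± 0.10) rose. So did the urate pathway enzyme Urah (2.29 ± 0.24) and the serotonin transporter Slc6a4 (2.19 ± 0.20). The naming rule required a rise in 3 of 3 pairs. The kinase Ikbke (2.01 ± 0.29), the F-box gene Fbxo15 (1.997 ± 0.09), the cytochrome P450 Cyp2s1 (1.87 ± 0.15), the cholesterol exporter Abca1 (1.86 ± 0.14) and the osteoclast fusion gene Ocstamp (1.86 ± 0.15) followed. Bmf, which encodes a BH3-only protein of apoptosis, read 2.69, 3.14 and 3.30 at 5 h and 0.98, 1.15 and 1.41 at 1 h, and its 1 h arrays were also below its 0 h arrays (1.66, 1.97 and 2.18). Its change between 5 h and 1 h was 1.87 ± 0.12, of which 1.11 was a rise above 0 h, but its second probe, also above background on all 6 arrays, differed by only 0.19. Within the run of replicates 1 and 2 the rises of Ikbke, Ccl7, Pdcd1 and Tnc and the falls of Cped1 and Klf3 did not pass limma's threshold, though each kept its direction. At 3 h against 1 h the late genes named stood between 1.19 (Abca1) and 3.66 (Icosl).

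**Figure D3:**
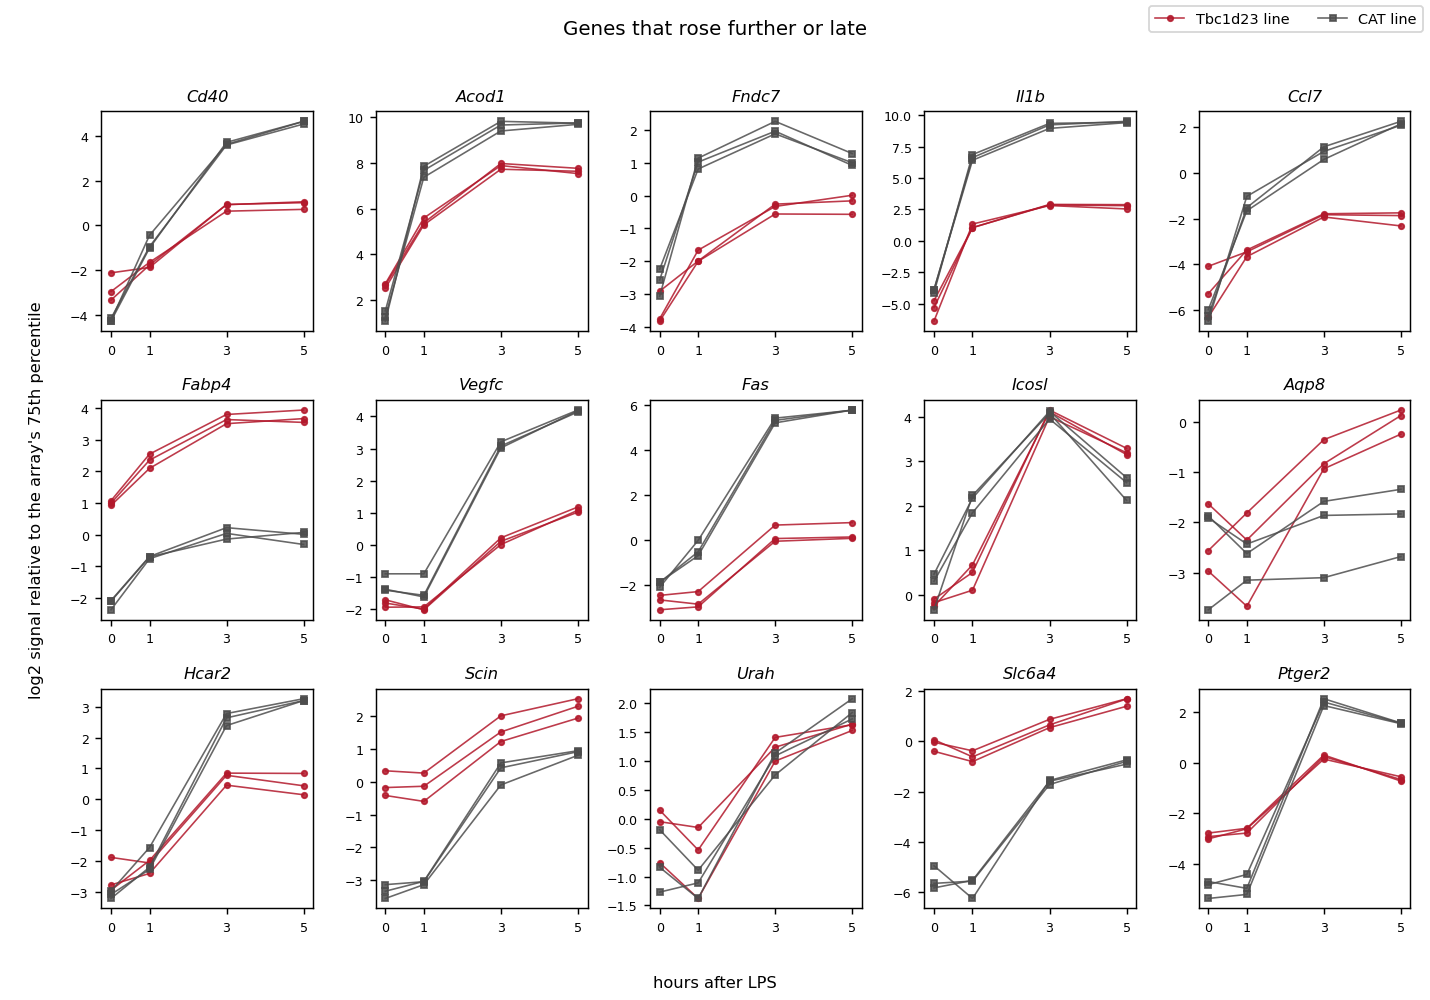
Levels of the 6 early-induced genes with the largest further rise (from Cd40 to Fabp4) and of the 9 late-rising genes with the largest rise (from Vegfc to Ptger2), each among those that met the naming rule. They are drawn as in the plot of faded genes, with the Tbc1d23 line in red and the CAT line in grey. In the Tbc1d23 line most curves are flat between 3 h and 5 h, while Vegfc, Scin and Slc6a4 are still climbing and Icosl and Ptger2 are past their peak.

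For 5 late genes that no 1 h array measured above background, the 5 h level gave a lower bound, set against the dimmest probes above background on the 1 h arrays. Cx3cl1, which encodes the membrane-bound chemokine fractalkine, was at least 25.3-fold higher, at 0.23, 0.45 and -0.02 on the 5 h arrays and -4.49, -4.60 and -6.16 on the 1 h arrays. The scavenger receptor Olr1 was at least 12.4-fold higher, the inhibitory receptor Pdcd1 at least 9.76-fold, the matrix protein Tnc at least 4.22-fold and the gelatinase Mmp9 at least 3.98-fold. The 1 h readings of these 5 were at background and the genes were chosen on this change, so no p-value is given. Of the other Tnc probes, the one above background on 1 of the 6 arrays differed by 1.05. The one above it on 0 of them differed by -0.23. The second Mmp9 probe, above background on 3 of the 6 arrays, differed by 2.68. Il6, the fever cytokine, was above background on 0 of 3 arrays at 1 h and 2 of 3 at 5 h, at least 1.54-fold higher. The nitric oxide synthase gene Nos2 was not well above background on any of the 6 arrays, and no fold is given for it.

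In 4 lists of macrophage activation genes more members were higher than lower, beside 11.6% higher and 8.07% lower among all genes. Of 30 activation enzymes and secreted effectors 15 were higher and 1 lower at 5 h (median 0.46), and 7 and 2 with median scaling. Complement C3 read 3.33, 3.47 and 3.65 at 5 h and 0.81, 0.83 and 1.33 at 1 h (2.49 ± 0.10), and the histamine-forming enzyme Hdc (2.34 ± 0.15) and the acute phase protein Saa3 (1.45 ± 0.33) rose too. Of 26 costimulation and activation markers 13 were higher and 3 lower (median 0.55), and 6 and 2 with median scaling. Among them was the TNF receptor Tnfrsf1b (1.86 ± 0.15), whose second probe, also above background on all 6 arrays, differed by only 0.10, and the receptor Ccrl2 was lower (-1.86 ± 0.25). Of 18 chemokines 7 were higher and 3 lower (median 0.44), and 5 and 3 with median scaling, including Cxcl16 (1.67 ± 0.18) and Ccl5 (1.12 ± 0.09), which attract T cells. Of 24 cytokines and growth factors 8 were higher and 6 lower (median 0.18), with lymphotoxin beta, Ltb, at 1.83 ± 0.10. For cytokines median scaling gave 4 higher and 7 lower and a median of -0.12, so the balance and its sign depended on the scaling.

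**Figure D4:**
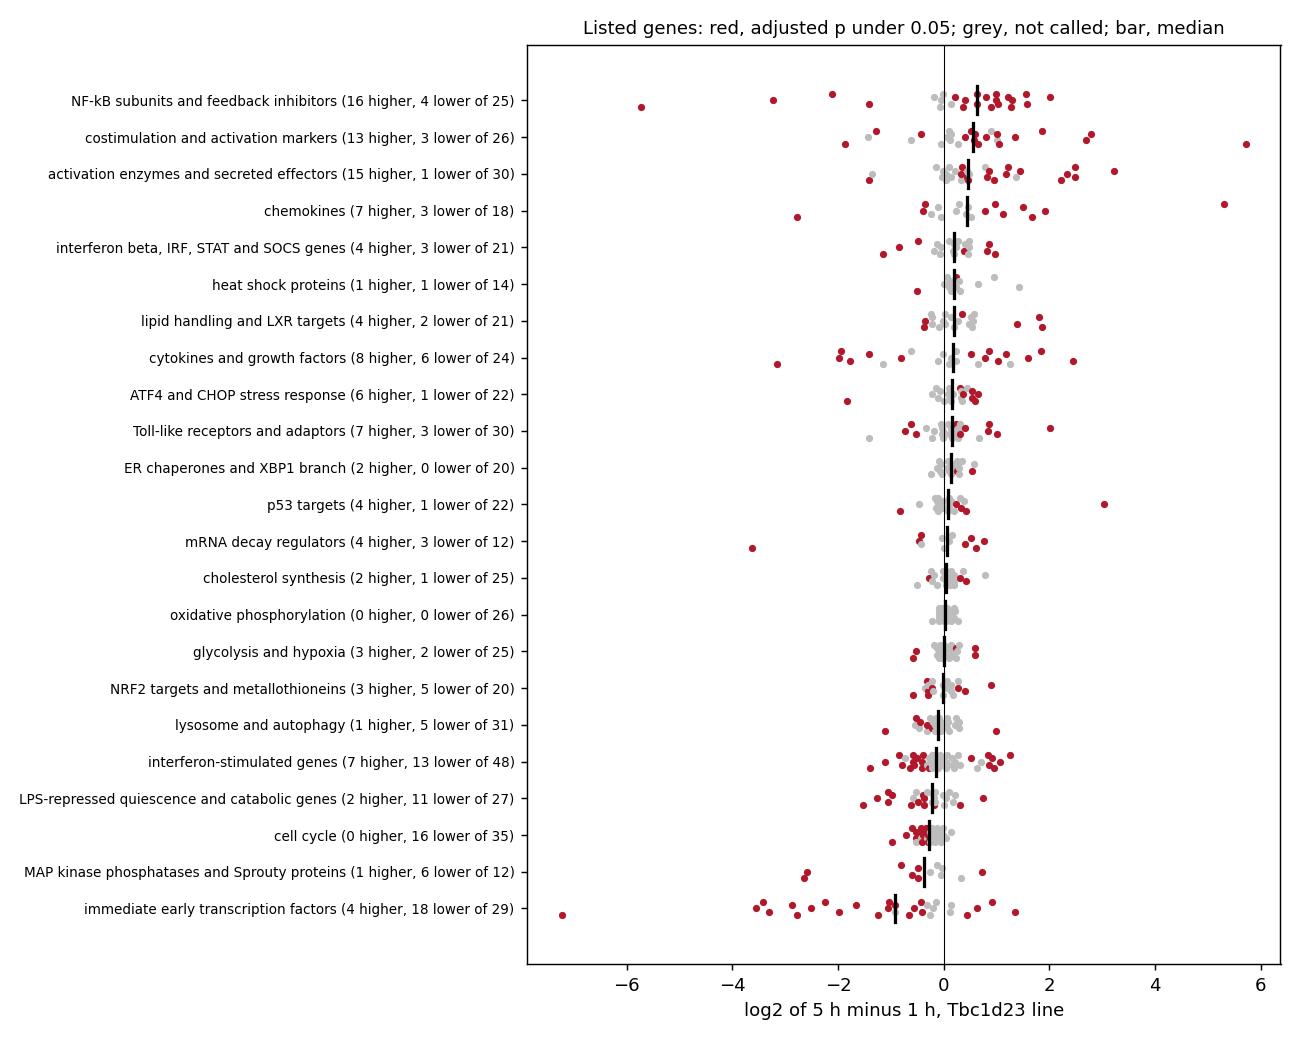
Log2 difference between 5 h and 1 h in the Tbc1d23 line for the tested members of 23 gene lists, ordered by the list median (black bar). Red points passed the adjusted p threshold and grey points did not, and the labels give the counts. Immediate early factors lie lowest (median -0.92) and NF-kB genes highest (median 0.64), with single members far from the rest of their list on both sides.

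Cell cycle genes leaned down: of 35 tested, 16 were lower and 0 higher at 5 h (median -0.29). Beside this, 8.07% of all genes were lower and 11.6% higher. The list had 15 lower and 0 higher with median scaling, and 25 and 0 with quantile normalization. The G1/S cyclin Ccne2 (-0.97 ± 0.14), the origin licensing factor Cdc6 (-0.71 ± 0.12) and the proliferation marker Mki67 (-0.41 ± 0.08) were among the 16. For Cdk1 the sign depended on the probe, -0.51 on the brightest and 0.03 on the mean of its probes. Of 27 quiescence and catabolic genes, a list named for repression by LPS, 11 were lower and 2 higher (median -0.22), beside the same shares. The PI3K inhibitor Pik3ip1 was at -1.26 ± 0.19 and the iron exporter Slc40a1 at -1.06 ± 0.26. The small GTPase Rhob was at -1.06 ± 0.16, but it had risen by 1.21 in the first hour and belonged to the faded genes. The 26 oxidative phosphorylation genes had 0 called by limma in either direction, with differences between -0.23 and 0.27.

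The remaining lists held calls in both directions, beside 11.6% higher and 8.07% lower among all genes. Of 31 lysosome and autophagy genes 5 were lower, among them the acid lipase Lipa (-1.12 ± 0.17), and 1, the autophagy receptor Sqstm1 (0.99 ± 0.11), was higher. Of 30 Toll-like receptors and adaptors 7 were higher and 3 lower, and 2 and 3 with median scaling, including the receptors Tlr2 (0.84 ± 0.10) and Nod2 (0.85 ± 0.11) and the kinase Irak2 (1.01 ± 0.09). The 20 genes tested as NRF2 targets had 5 lower and 3 higher (2 and 0 with median scaling), with the sulfiredoxin Srxn1 at 0.89 ± 0.11 and Nfe2l2, which encodes NRF2 itself, at -0.57 ± 0.07. Of 22 ATF4 and CHOP targets 6 were higher and 1 lower, and 0 and 1 with median scaling, the lower one being the phosphatase subunit Ppp1r15a at -1.83 ± 0.20. Of 21 interferon beta, IRF, STAT and SOCS genes 4 were higher and 3 lower, and 1 and 3 with median scaling. Among them were the factor Irf1 (-1.14 ± 0.13 on its brightest probe) and the inhibitors Socs3 (-0.85 ± 0.10) and Cish (0.97 ± 0.23). Lipid handling had 4 higher and 2 lower of 21, glycolysis 3 and 2 of 25, p53 targets 4 and 1 of 22, mRNA decay regulators 4 and 3 of 12, cholesterol synthesis 2 and 1 of 25, ER chaperones 2 and 0 of 20 and heat shock proteins 1 and 1 of 14. With median scaling 0 members were higher in the glycolysis, mRNA decay, cholesterol, ER chaperone and heat shock lists, 1 in the p53 list and 3 in the lipid list.

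The late-falling genes, 64 in all, were at least 2-fold lower at 5 h than at 1 h and called below 0 h without an early rise. Membership depended on the processing. Of the 64, 20 met the rule with median scaling, 21 with the normexp background correction and 25 within the run of replicate 3 and the CAT slides. Their median change was -1.26, 49 were above background on all 6 arrays, and 50 were called lower at 3 h than at 1 h, beside 6.67% of all genes and with the 1 h arrays that chose them. Lrrc17 read -3.67, -4.12 and -3.26 at 5 h and -1.43, -1.33 and -1.48 at 1 h, the largest named fall of the class (-2.27 ± 0.18, limma adjusted p = 7.43e-07). Klhl30 (-1.97 ± 0.23), Pakap (-1.95 ± 0.23), the scaffold gene Frmd4b (-1.86 ± 0.07), the GTPase-activating gene Arhgap24 (-1.80 ± 0.17), the inhibitory Smad6 (-1.70 ± 0.21), Cped1 (-1.70 ± 0.21) and the repressor Klf3 (-1.52 ± 0.26) fell too. Arhgap24 was the late case among these 8, with -0.18 at 3 h against 1 h, not called, and -1.62 from 3 h to 5 h.

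A further 218 genes were lower at 1 h than at 0 h, a fall called in 3.22% of all genes, higher at 5 h than at 1 h and not called higher at 5 h than at 0 h. Their median was -0.90 at 1 h against 0 h and 0.79 at 5 h against 1 h. Both changes chose the class and share the 1 h arrays, so a gene read too low at 1 h favours both calls. Of the 218, 118 were above background on all 6 arrays, and 45 were on none of the 1 h arrays. The share of spots whose signal the scanner software replaced with a surrogate was 18.9%, 28.2% and 30.1% at 5 h, 32.4%, 37.8% and 28.3% at 1 h and 12.5%, 42.1% and 20.1% at 0 h, and its part in this class was not tested. Among those measured on every array, Ikzf1, which encodes the lymphoid factor Ikaros, read -1.49, -1.56 and -1.72 at 5 h, -2.65, -3.01 and -2.45 at 1 h and -1.25, -1.17 and -1.13 at 0 h. Its 5 h arrays lay above every 1 h array and below every 0 h array (1.12 ± 0.14). The tachykinin Tac2 (1.61 ± 0.28), the zinc finger gene Zfp658 (1.43 ± 0.14), the olfactory receptor Olfr124 (1.20 ± 0.28) and Cd300ld3 (1.17 ± 0.28) met the same rule.

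The same comparison in the CAT line, which shares no array with it, called 8516 genes (56.5%), 4747 (31.5%) higher and 3769 (25%) lower at 5 h. The change differed between lines in 5595 genes (37.1%) by the test of the difference, 3000 (19.9%) higher and 2595 (17.2%) lower in the Tbc1d23 line. Line and slide run were partly confounded, although both times of a pair shared a slide, and 2988 genes differed in the run with arrays of both. Of the 58 faded genes, 40 were also called lower at 5 h in CAT cells, 10 higher and 8 in neither direction. In 34 of them the change was lower in the Tbc1d23 line by the test of the difference, in 8 higher, and 16 were not called. The Tbc1d23 arrays at 5 h and 1 h that chose the faded genes also enter this test, which favours a lower change in this line. This holds for the faded genes named below as well. The 40 genes that faded by the same rule in both lines are 69% of the Tbc1d23 set and 30.5% of the CAT set.

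Tnf, Cxcl2 and Zfp36 were among the faded genes that fell less in CAT cells. Tnf fell by 0.59 on the log2 scale in CAT cells (6.19, 5.83 and 5.88 at 5 h, 6.54, 6.55 and 6.59 at 1 h), and the lines differed by -2.56 (limma adjusted p = 2.13e-09). At 5 h the Tbc1d23 arrays were all below the CAT arrays, while at 1 h the lines' arrays overlapped. Cxcl2 was not called in CAT cells (-0.02), a difference between lines of -2.76. Zfp36 fell by 0.98 in CAT cells, a difference of -2.64. Egr1 and Tnfaip3 also fell less in CAT cells (-3.89 and -2.34), with differences of -3.34 and -3.39. Egr3 and Egr2 went the other way: CAT cells began from higher 1 h levels and fell by 5.91 and 4.24, so the differences were 2.37 and 1.36. For Nr4a1 (0.06, limma adjusted p = 0.836) and Errfi1 (0.09, limma adjusted p = 0.588) no difference between lines was called.

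Of the 133 late genes, 112 were higher at 5 h in CAT cells, 3 lower and 18 in neither direction. Among all genes 31.5% were higher and 25% lower in CAT cells. The difference was lower in the Tbc1d23 line for 65 of the 133 and higher for 26. Beside this, it was lower for 17.2% and higher for 19.9% of all genes. The Tbc1d23 arrays that chose the late genes enter this test too, which favours a higher change in this line. The 62 genes called late by the same rule in both lines were 46.6% of the Tbc1d23 set and 6.54% of the 948 in the CAT set. Ptger2 (-4.41), Fas (-3.16), Slc6a4 (-2.77) and Cd40 (-2.72) rose less in the Tbc1d23 line. Ptger2 was above background on only 4 and Slc6a4 on only 3 of the 6 CAT arrays, so the sizes of their differences are uncertain. Icosl rose in the Tbc1d23 line and was not called in CAT cells (0.34), a difference of 2.45. The brightest Bmf probe fell by 2.71 in CAT cells and rose here, a difference of 4.57 ± 0.17 (limma adjusted p = 8.65e-11), while on the second probe the difference between lines was -0.42, so its sign depended on the probe. Ranbp3l (4.12), Fam131a (3.85), the stress gene Sesn1 (3.57) and the adhesion adaptor Bcar1 (3.57) also had large positive differences. In all 4 the CAT line fell, while the change here was between -0.38 and 0.59.

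The interferon-stimulated genes differed widely between the lines. Of 48 tested, 41 were well above background on all 6 Tbc1d23 arrays at 5 h and 1 h. Of these, 7 were higher and 12 lower at 5 h in the Tbc1d23 line (median -0.17), against 41 higher in CAT cells (median 4.30). Among all genes 11.6% were higher and 8.07% lower in the Tbc1d23 line, and 31.5% were higher in CAT cells. The difference was called lower in the Tbc1d23 line for these 41, beside 17.2% of all genes. Another 4, Ifit2, Gbp6, Mx1 and Iigp1, named after their values were seen, were not above background on any of the 6 Tbc1d23 arrays and were tested only because of their levels elsewhere in the series, so their Tbc1d23 values are not well measured. Summed over the list, the linear levels in the Tbc1d23 line were 195 to 227 at 0 h, 205 to 242 at 1 h, 208 to 240 at 3 h and 193 to 218 at 5 h. In CAT cells the sums were 174 to 195 at 0 h, 213 to 248 at 1 h, 1283 to 1429 at 3 h and 2596 to 2883 at 5 h. Ifit3, a translation-blocking antiviral protein, read -1.54, -0.88 and -1.10 at 5 h and -2.27, -2.44 and -2 at 1 h in Tbc1d23 cells, a called rise of 1.06 ± 0.20. This call was lost without replicate 2 (0.81, limma adjusted p = 0.0502). In CAT cells it read 6.88, 7.03 and 7.22 at 5 h and -3.33, -3.77 and -4.27 at 1 h, and the lines differed by -9.77. Cmpk2 (-8.05), the nucleic acid sensor Zbp1 (-7.96), the GTPase Ifi47 (-7.50), the antiviral Rsad2 (-7.37) and Oasl2 (-7.31) followed.

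Members of the list moved in both directions in the Tbc1d23 line. Gbp3 (1.25 ± 0.13), Ifit3, Rsad2 (0.95 ± 0.14) and Ifit1 (0.86 ± 0.17) rose, while the deubiquitinase Usp18, a brake on the interferon receptor, fell (-1.10 ± 0.13). Irf1 fell here on its brightest probe and rose by 2.25 in CAT cells, a difference of -3.39. Its second probe, above background on 3 of the 6 Tbc1d23 arrays, rose by 0.71 here, and its difference between lines was -1.66. For Ifnb1 the changes were 0.48 here and 0.31 in CAT cells, neither of them called, and no difference between lines was called (0.17, limma adjusted p = 0.748).

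**Figure D5:**
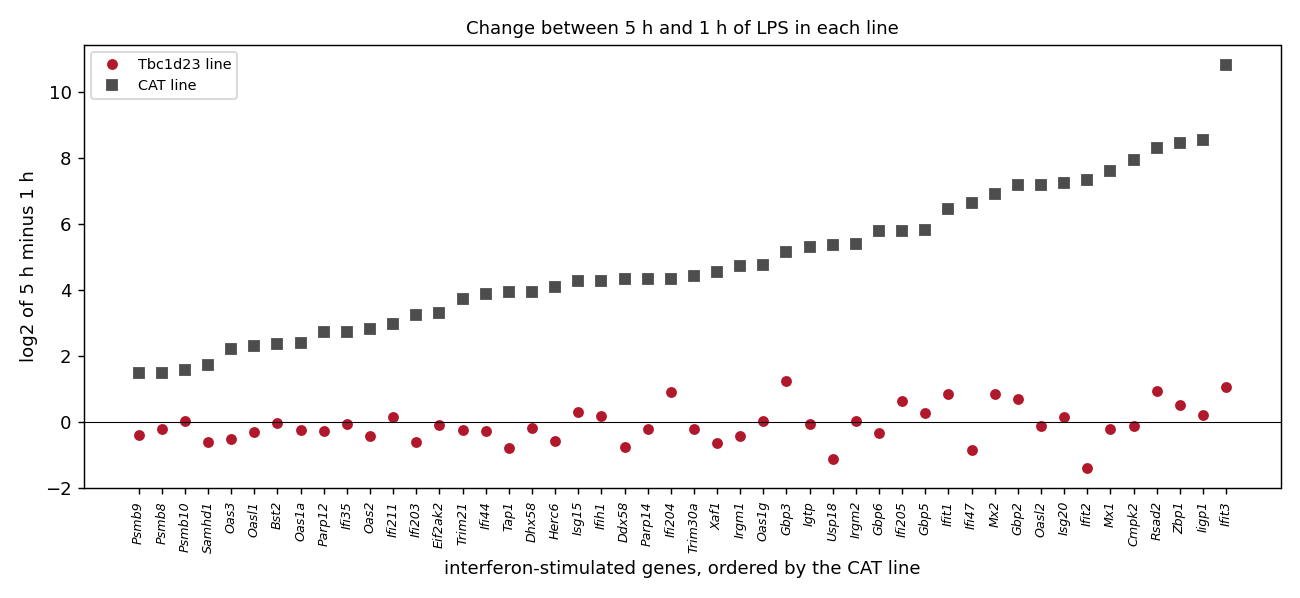
Log2 difference between 5 h and 1 h for 48 interferon-stimulated genes in the Tbc1d23 line (red circles) and the CAT line (grey squares), ordered by the CAT line. The CAT points rise along the axis while the 41 Tbc1d23 points measured above background on all 6 arrays stay between -1.10 and 1.25.

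The letters of the ISRE stood in 52.3% of 44 promoters of these genes (38 of 48 matched), against 5.97% of promoters of late-rising genes and 3.44% of all promoters. The windows of Ifit3 and Rsad2, members with ISRE matches chosen after the matches were seen, are shown in the same form.
Ifit3 (chr19:34583279-34583528, plus strand): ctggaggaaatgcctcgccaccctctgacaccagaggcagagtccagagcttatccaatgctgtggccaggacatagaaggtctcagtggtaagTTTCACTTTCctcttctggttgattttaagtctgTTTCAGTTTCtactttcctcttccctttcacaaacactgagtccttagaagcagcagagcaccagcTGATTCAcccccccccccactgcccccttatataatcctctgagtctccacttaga
Rsad2 (chr12:26456453-26456702, minus strand): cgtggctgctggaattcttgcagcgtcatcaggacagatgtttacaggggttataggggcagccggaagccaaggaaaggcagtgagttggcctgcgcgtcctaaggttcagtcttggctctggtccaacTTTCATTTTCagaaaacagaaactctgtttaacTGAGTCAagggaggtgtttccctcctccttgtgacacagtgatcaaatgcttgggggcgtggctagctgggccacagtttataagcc
Ifit3 holds 2 ISRE matches and Rsad2 holds 1, and each also holds 1 AP-1 match. AP-1 letters were in 22.7% of promoters of interferon-stimulated genes and 13.4% of promoters of late-rising genes, against 7.81% of all. Late-rising promoters with these letters included those of Fas, Ikbke, Olr1 and Il6.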

How the data were processed

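Total RNA of the Tbc1d23 and CAT lines was measured on 24 1-colour Agilent arrays, 3 for each line and time. The intensity values used are the processed signals of the deposited scanner files, background-corrected, per the file headers, by version 10.7.1.1 of the Agilent software. Deposited log2 values for the same arrays served as an alternative. The submitters' processing notes name Agilent Feature Extraction, RMA and Partek. Probe coordinates are mm9, per the file headers.

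Control spots and spots marked as outliers were left out, spots of a probe were averaged, and each array's 75th percentile was subtracted on the log2 scale. Of 41174 probes, 21960 cleared background on each of the 3 arrays of some line and time and were kept, and the brightest probe stood for each of 15075 genes. Symbols were updated through RefSeq for 25097 probes. All 24 arrays were fitted with limma 3.58.1 (R 4.3.3) to the 8 line and time means with the slide as a block, with 12 residual degrees of freedom, and p-values were Benjamini-Hochberg adjusted within each contrast over all genes, with 0.05 as the threshold. The replicate numbers pair the samples, since the 4 times of a number share 1 slide, and same-numbered 5 h and 1 h deviations correlated at 0.765, 0.796 and 0.9. The number of arrays limits the precision.

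Genes were named as those with the largest changes in each class, in the difference between lines and in each of 23 gene lists, among called genes above background on all arrays of both times, with groups apart and 3 of 3 pairs alike, plus 15 genes whatever their values. Some genes that met this rule are not reported here. Members and lists were chosen with earlier results of these data known. Alternatives covered the block, the arrays fitted, the slide runs, the scaling, the background correction, the probe filter, several probes per gene, left-out replicates and the fold threshold. The procedure was tested on simulated data.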

Additional observations from a re-analysis of the deposited data

Results flagged for a closer look

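For each gene below, the change between 5 h and 1 h differed between the Tbc1d23 and CAT lines by limma's test of the difference itself. Values are the Tbc1d23 change minus the CAT change on the log2 scale. The faded, rising and falling genes were chosen on Tbc1d23 arrays that also enter this test, and the other genes on the difference itself. Groups of 3 arrays were too small to be screened for single outlying arrays.

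Among faded genes the difference was -3.39 for Tnfaip3, -3.34 for Egr1, -2.76 for Cxcl2, -2.64 for Zfp36, -2.56 for Tnf, -2.55 for Atf3, -1.92 for Dusp2, -1.34 for Ier2, -1.08 for Nfkbiz and -0.37 for Dusp1. It was positive for Egr3 (2.37), Egr2 (1.36) and Btg2 (0.72), which fell further in CAT cells.

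Among genes that rose further it was -2.72 for Cd40, -2.04 for Ccl7, -1.23 for Il1b, 1.57 for Fndc7 and 0.74 for Fabp4. Among late-rising genes it was -4.41 for Ptger2, -3.16 for Fas, -2.77 for Slc6a4, -2.61 for Hcar2, -2.46 for Vegfc, -2.34 for Ikbke, -1.54 for Scin, -1.24 for Ocstamp, -0.65 for Cyp2s1 and -0.40 for Fbxo15. It was positive for Bmf (4.57, but -0.42 on its second probe), Icosl (2.45) and Aqp8 (1.88). Ptger2 was above background on 4 and Slc6a4 on 3 of the 6 CAT arrays at 5 h and 1 h. The sizes of these 2 differences are therefore uncertain.

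Among late-falling genes it was 3.18 for Lrrc17, 3.11 for Arhgap24, -3.49 for Pakap and -1.45 for Klf3. Lrrc17 and Arhgap24 were each above background on only 3 of the 6 CAT arrays at 5 h and 1 h. The sizes of their differences are therefore uncertain. Pakap rose by 1.54 in CAT cells. Other large positive differences were 4.12 for Ranbp3l, 3.85 for Fam131a and 3.57 each for Sesn1 and Bcar1.

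Interferon-stimulated genes gave the most negative values, -9.77 for Ifit3, -8.05 for Cmpk2, -7.96 for Zbp1, -7.50 for Ifi47, -7.37 for Rsad2 and -7.31 for Oasl2.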

How the results depend on the processing

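Of 2258 values of 136 named results under the alternatives, 2012 kept their direction and their side of the threshold, 241 lost the call, 1 gained it and 4 changed sign. The 4 were Dnaja1 (-0.0688) and Ero1a (-0.0738) with median scaling, and Khsrp (0.0096) and Cdk1 (0.0267) with the mean of a gene's probes; the cause was not tested. Without the replicate block, 1009 genes changed in place of 2968, 3123 differed between lines in place of 5595, and 132 list members were called in place of 222. With only the 6 arrays, 1492 changed. Within the run of replicates 1 and 2, 1077 changed, 9 early genes rose further in place of 17, and 132 list members were called. Within the run of replicate 3 and the CAT slides the numbers were 582 changed, 2988 between lines, 79 list members and 47 CAT early genes lower in place of 87. Faded genes numbered 92 with quantile normalization and with the deposited values and 132 with median scaling, in place of 58, and further risers 27, 27 and 36. Median scaling gave 1407 changed, 66 late risers in place of 133 and 2553 between lines. It gave 54 late fallers in place of 64, of which 20 were shared. Normexp, whose lowest values were raised after seeing the data, gave 11 further risers, 59 late risers and 21 late fallers in place of 64. The stricter probe filter gave 10 further and 75 late risers, and a log2 threshold of 2 gave 5, 33 and 2 late fallers. Leaving out replicate 1, 2 or 3 gave 1459, 1732 and 1668 changed genes, between 51 and 60 faded, 13 and 18 further, 114 and 160 late, 60 and 66 late-falling, 64 and 74 CAT early genes lower, 4432 and 4942 between lines and 151 and 166 list members. Levels near background are the least certain.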
